A study of Mus musculus with 39 samples.

Results

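The translation initiation and elongation factor genes are the rows of the RNA-seq tables whose mouse gene symbol begins with Eif and a digit or with Eef1 or Eef2, and 61 of the 24421 listed genes were taken as members after 3 further matching symbols had been left out by the rule. Nuclei labelled with Sun1-sfGFP, a green fluorescent protein on the nuclear membrane, had been isolated from the neocortex either by FANS, in which single nuclei are sorted by flow cytometry, or by INTACT, in which nuclei are captured on antibody-coated magnetic beads. All groups came from adult male and female mice that carried the tamoxifen-dependent Arc-creERT2(TG/WT) allele together with the R26 CAG-Sun1-sfGFP-Myc reporter (M/WT or M/M). Every animal had received tamoxifen before a social interaction test, so that the techniques differed and the animals' treatment did not. Cre was driven by the promoter of Arc, an immediate early gene, and the labels call the material activated neuronal nuclei. The nuclear RNA libraries fell into 3 batches of distinct biological sources, with 4 FANS and 4 INTACT libraries in batch 1, 7 FANS and 4 INTACT in batch 2, and 7 FANS and 5 INTACT in batch 3. The ATAC-seq, which maps open chromatin, comprised 3 technical replicates per technique from 1 biological source.

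Translation begins when eIF2 carries the initiator tRNA to the small ribosomal subunit, eIF3 holds the complex together, and eIF4F (the cap-binding protein eIF4E, the scaffold eIF4G and the helicase eIF4A) brings the mRNA. eIF1, eIF1A and eIF5 set the start codon, eIF5B joins the large subunit, and eEF1A and eEF2 then deliver aminoacyl-tRNAs and move the ribosome along the mRNA. eIF2B recharges eIF2 with GTP, the eIF2 alpha kinases block that step under stress, and in neurons eEF2 kinase and the eIF4E-binding proteins link synaptic activity to local protein synthesis. Transcripts of many of these proteins are ubiquitous and belong to the TOP class, whose mRNAs begin with a C followed by a run of pyrimidines.

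The start-site sequences of a few members are shown because their promoters were open in all 6 ATAC-seq lists, as described further on, and because they hold the letters that the motif search counted. They come from the RefSeq promoter table of GRCm38.p6, which held 62 windows for 47 of the 61 members, each with 250 bases before and 50 after an annotated start. The first lines show a pyrimidine run in capitals, defined as a C followed by at least 5 further C or T letters in the sense direction and starting within 50 bases of the annotated start. The elongation factor genes Eef2 (chr10:81176635-81176664, + strand) and Eef1a1 (chr9:78481710-78481739, - strand) are followed by Eif2b5 (chr16:20498797-20498826, + strand), the gene of the catalytic eIF2B subunit.
Eef2: acgtcagcggtCTCTTCCgccgcagccgcc
Eef1a1: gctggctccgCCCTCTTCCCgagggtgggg
Eif2b5: gcattCCTTCCTCTTTCTCTCCCTgcaact
The next lines show in capitals the letters CCGGAAGT, a core that ETS transcription factors recognise, in Eef1b2 (chr1:63176821-63176850, + strand), Eif2b4 (chr5:31193120-31193149, - strand) and Eif2b2 (chr12:85219486-85219515, + strand).
Eef1b2: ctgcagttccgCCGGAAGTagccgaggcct
Eif2b4: cccagtgcacgCCGGAAGTtgtagtccgct
Eif2b2: cctctctcggcCCGGAAGTgaaacagtgct
The last line shows in capitals the letters of an interferon response element, a doublet of GAAA with any 2 letters between, in Eif2ak2 (chr17:78882535-78882564, - strand), the gene of the double-stranded RNA kinase PKR.
Eif2ak2: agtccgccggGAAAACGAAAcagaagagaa

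CCGGAAGT on either strand was held by 9 of the 47 members with a window (19.1%), Eef1b2, Eif2ak1, Eif2b2, Eif2b4, Eif3d, Eif3l, Eif4e2, Eif5a and Eif5a2, against 8.16% of 11176 genes tested in batch 1 and 4.31% of all 27025 genes with a window. The pyrimidine run was held by 30 members (63.8%) against 60.3% of the genes tested, so that these letters were about as frequent in the members as elsewhere. CCAAT on either strand was held by 15 members (31.9%) against 42.3% of the genes tested, and GGGGCGGGG, an Sp1 site, by 8 members (17.0%) against 23.5%. TATAAA in the sense direction was held by 4 members (8.51%) against 5.31%, and the interferon response element on either strand by 3 members (6.38%) against 3.41%. The NRF1 motif was held by 1 member (2.13%) against 2.18%, AAGATGGCG, bound by YY1, by 2 members (4.26%) against 3.22%, and the cyclic AMP response element TGACGTCA by 1 member (2.13%) against 3.46%. A letter match is a description of the window.

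Between 4205665 and 11028713 reads fell on genes per RNA library, and the batch 1 INTACT libraries, with 8621143 to 11028713, stood above the 4853224 to 6066759 of the batch 1 FANS libraries. In RPM, reads scaled to the total on genes of the library, members took 3341.3 to 3529.4 in batch 1 FANS and 3765.2 to 3992.3 in INTACT, a difference without overlap. Reads outside annotated exons made up 81.9 to 84.3% in batch 1 FANS against 73.6 to 75.3% in INTACT, but 81.9 to 84.0% against 79.8 to 81.4% in batch 2 and 82.6 to 87.5% against 84.4 to 85.5% in batch 3. In batch 1, 17 of the 19 tested abundant cytoplasmic mRNAs of a list that includes Actb and Gapdh were higher in INTACT, with summed normalized counts of 11350 to 12540 in FANS and 16120 to 16560 in INTACT, whereas of 8 nuclear long non-coding RNAs 5 were lower and 2, Rian (0.35) and Mirg (0.25), higher (summed 783900 to 982300 against 574700 to 623100). Excitatory neuron markers, the defining genes of the labelled tissue, summed to 11730 to 11920 in FANS against 11100 to 11730 in INTACT, with 2 of 10 higher and 3 lower. Markers of other cells were also detected: 8 of 10 oligodendrocyte markers (summed 6424 to 8036 against 10330 to 10900), 7 of 10 astrocyte markers (6331 to 7087 against 7895 to 8108) and 5 of 8 tested inhibitory neuron markers (233 to 324.1 against 385.4 to 435.2) were higher in batch 1 INTACT, while the sums of microglia (286.8 to 379 against 308 to 337.8; 1 of 5 tested lower) and vascular markers (57.62 to 98.14 against 83.69 to 95.6; 2 of 3 tested higher and 1 lower) overlapped. In batch 1, 18.6% of all genes tested were higher and 17.5% lower. Batch 2 had 2 of 19 cytoplasmic mRNAs and 2 of 10 astrocyte markers higher (all genes 0.834%). Of its oligodendrocyte markers, 4 of 10 were higher (summed 7140 to 13790 against 13700 to 16440). In batch 3 no cell type marker passed (all genes 1.18% and 0.519%). The median log2 difference (INTACT minus FANS) there was -0.13 for the cytoplasmic and 0.23 for the nuclear RNAs. No list had a marker at 0 in every library of a batch except 1 vascular marker in batch 2. The part of these shifts in the results below was not tested, and in bulk nuclei fewer nuclei of a type and less RNA per nucleus cannot be told apart.

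In batch 1, the factor genes were more often higher than lower in INTACT-nuclei. Of the 58 members tested, 20 (34.5%) rose in INTACT against 18.6% of all genes tested, and 6 (10.3%) fell against 17.5%, at a Benjamini-Hochberg adjusted p under 0.05 in limma. Above 0 lay 38 members (65.5%, all genes 50.9%). The median log2 difference (INTACT minus FANS, on the log2(normalized count + 1) scale used throughout) was 0.149 for the members and 0.00668 for all genes, although the median size regardless of direction was 0.223 and 0.224. Among genes expressed at or above the lower quartile of the members, where more genes pass, 17 of 43 members (39.5%) rose against 25.5% of genes and 6 (14.0%) fell against 24.3%. The libraries of the techniques did not overlap for 19 members that were higher in INTACT (32.8%, all genes 17.1%) and for 7 that were lower (12.1%, all genes 16.5%). Only Eef2 and Eef1a1 were enriched at least 1.5-fold (3.45%, all genes 4.03%), and no member was depleted by that fold, in limma, edgeR or DESeq2 (all genes 3.94% in limma). At an unadjusted p under 0.05, 26 members (44.8%, all genes 22.9%) were higher and 8 (13.8%, all genes 21.6%) lower. Leaving out FANS replicate 1 or 3 made Eif2ak2 pass as depleted by at least 1.5-fold. Nothing in the labels says that libraries of a batch came from separate animals, so p-values measure the spread between libraries, which may be technical.

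**Figure D1:**
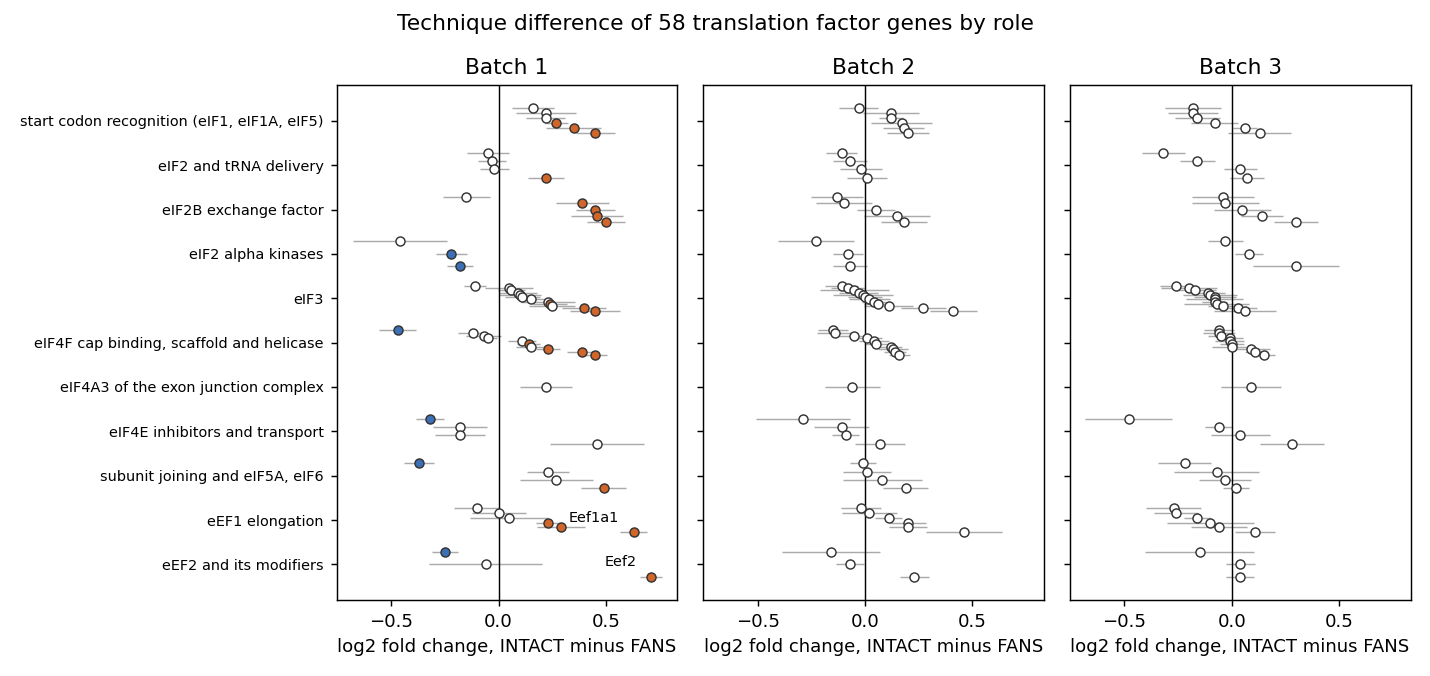
The log2 difference between INTACT and FANS (horizontal axis) of each tested member, grouped by role and shown for the 3 batches, with bars for the standard error; orange points passed the test as higher in INTACT, blue points as lower, and white points did not pass. Coloured points are found in batch 1 alone, where 20 members lie to the right and 6 to the left.

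The elongation factors held the largest differences. Eef2 (chr10:81176631-81182509, mm10, + strand), which encodes the GTPase that moves the ribosome by 1 codon, had normalized counts of 917, 913, 848 and 941 in the FANS libraries of batch 1 and of 1530, 1430, 1460 and 1530 in the INTACT libraries. Every INTACT library lay above every FANS library, and the log2 difference was 0.71 with a standard error (SE) of 0.0509 (1.64-fold, adjusted p = 1.21e-10). In batch 2, Eef2 ranged from 710 to 905 with a median of 812 in FANS and from 832 to 1030 with a median of 975 in INTACT, and the ranges overlapped (0.23, SE 0.0675, adjusted p = 0.0839). In batch 3 the FANS libraries (507 to 737, median 635) enclosed the INTACT libraries (633 to 678, median 663), with a difference of 0.04 (SE 0.069). Eef2k, whose product phosphorylates and inactivates eEF2, moved the other way in batch 1, from 597 ± 31.0 to 500 ± 10.8 (SD, n = 4 each), a log2 difference of -0.25 (adjusted p = 0.00172). Eef2kmt, the eEF2 lysine methyltransferase, was near 22 counts in both (22.2 ± 3.82 and 21.9 ± 7.51).

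Eef1a1 (chr9:78478453-78481724, - strand), the ubiquitous eEF1A that brings aminoacyl-tRNA to the ribosome, had 490, 568, 478 and 521 normalized counts in batch 1 FANS and 778, 767, 804 and 825 in INTACT. The groups did not overlap, and the log2 difference was 0.63 (SE 0.0619, 1.54-fold, adjusted p = 1.95e-08). Batch 2 had 405 to 602 in FANS (median 527) and 548 to 649 in INTACT (median 596), and batch 3 had 397 to 646 (median 504) and 365 to 525 (median 391), with overlap in both and differences of 0.20 (adjusted p = 0.236) and -0.26 (adjusted p = 0.226). Eef1a2, the paralog of mature neurons and muscle, also rose in batch 1 (710 ± 35.8 to 833 ± 37.6, log2 difference 0.23, adjusted p = 0.00223). The count ratio of Eef1a1 to Eef1a2 within a library was 0.642 to 0.811 in batch 1 FANS and 0.881 to 1.01 in INTACT, without overlap, but overlapped in batches 2 and 3. Of the exchange factor subunits that recharge eEF1A, Eef1b2 rose (145 ± 20.8 to 177 ± 18.1, 0.29, adjusted p = 0.0457), whereas Eef1d (217 ± 33.7 and 202 ± 22.5) and Eef1g (121 ± 20.8 and 120 ± 11.9) did not pass. Omitting any of FANS replicates 2 and 3 and INTACT replicates 1, 2 and 3 ended the call of Eef1b2, whose adjusted p reached 0.186 over its alternatives.

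eIF2B was the role with the largest share of members that rose, 4 of its 5 subunit genes, with a median log2 difference of 0.45. Eif2b5 (chr16:20498817-20509325, + strand), the catalytic subunit, had 250, 270, 229 and 193 normalized counts in batch 1 FANS and 343, 314, 337 and 331 in INTACT, so that all INTACT libraries were higher (0.50, SE 0.0894, adjusted p = 8e-05). Eif2b4, a regulatory subunit, had 192, 234, 199 and 180 against 248, 293, 271 and 290, again without overlap (0.45, SE 0.0908, adjusted p = 2.96e-04). Its level per kb of exon was the highest of the role in batch 1 (113, beside 111 for Eif2b5). Eif2b5 stood higher in batch 2 (83.7 against 79.9) and in batch 3 (61.2 against 58.3). Eif2b2 rose from 88.2 ± 11.3 to 121 ± 5.31 (0.46, adjusted p = 0.00413) and Eif2b1 from 97.6 ± 15.2 to 127 ± 5.32 (0.39, adjusted p = 0.0143). Eif2b3, which pairs with Eif2b5 in the catalytic part, had 125 ± 7.70 and 112 ± 3.70 (-0.15, adjusted p = 0.302). The call of Eif2b1 did not survive the omission of FANS replicate 4 or INTACT replicate 3 (adjusted p up to 0.0526). In batches 2 and 3 no subunit passed. The differences of Eif2b5 were 0.05 and 0.14, with -0.01 to 0.09 in batch 2 (below 0 without INTACT replicate 2) and 0.08 to 0.21 in batch 3 when 1 library was left out, lowest without INTACT replicate 4 and highest without INTACT replicate 3.

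Of the member genes of eIF2 and of tRNA delivery, 1 of 4 rose, and of the eIF2 alpha kinases among the members 2 of 3 fell. Eif2ak3, Eif2s3x and Eif2s3y were left out by the rule, so neither count covers its whole group. Eif2s2, the beta subunit of eIF2, had 282, 284, 229 and 249 counts in FANS and 296, 327, 278 and 315 in INTACT of batch 1, which overlapped, and passed narrowly (0.22, SE 0.0846, adjusted p = 0.0411). Eif2s1, the alpha subunit that the kinases phosphorylate, had 211 ± 11.4 and 205 ± 28.2 (-0.05, adjusted p = 0.743). Eif2d, a factor of non-canonical initiator tRNA delivery, had 498, 450, 481 and 432 in FANS and 441, 444, 474 and 466 in INTACT, which overlapped (-0.03), and Eif2a lay at -0.02. The more abundant kinases both fell in batch 1. Eif2ak1, the heme-regulated kinase, went from 322, 352, 339 and 342 in FANS to 283, 290, 277 and 315 in INTACT (-0.22, SE 0.0731, adjusted p = 0.021), and Eif2ak4, the amino acid sensor GCN2, from 698, 720, 823 and 714 to 673, 615, 656 and 668 (-0.18, SE 0.0611, adjusted p = 0.0262). Neither kinase overlapped between techniques, and Eif2ak2 had 57.2 ± 21.2 and 39.6 ± 7.56 (-0.46, adjusted p = 0.102). Leaving out FANS replicate 2 or INTACT replicate 1, 2 or 3 ended the call of Eif2ak1 (adjusted p up to 0.0806), leaving out FANS replicate 3 or INTACT replicate 2 or 3 that of Eif2ak4 (up to 0.106), and 5 of 8 omissions, FANS replicates 3 and 4 and INTACT replicates 1, 2 and 4, that of Eif2s2 (up to 0.143).

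**Figure D2:**
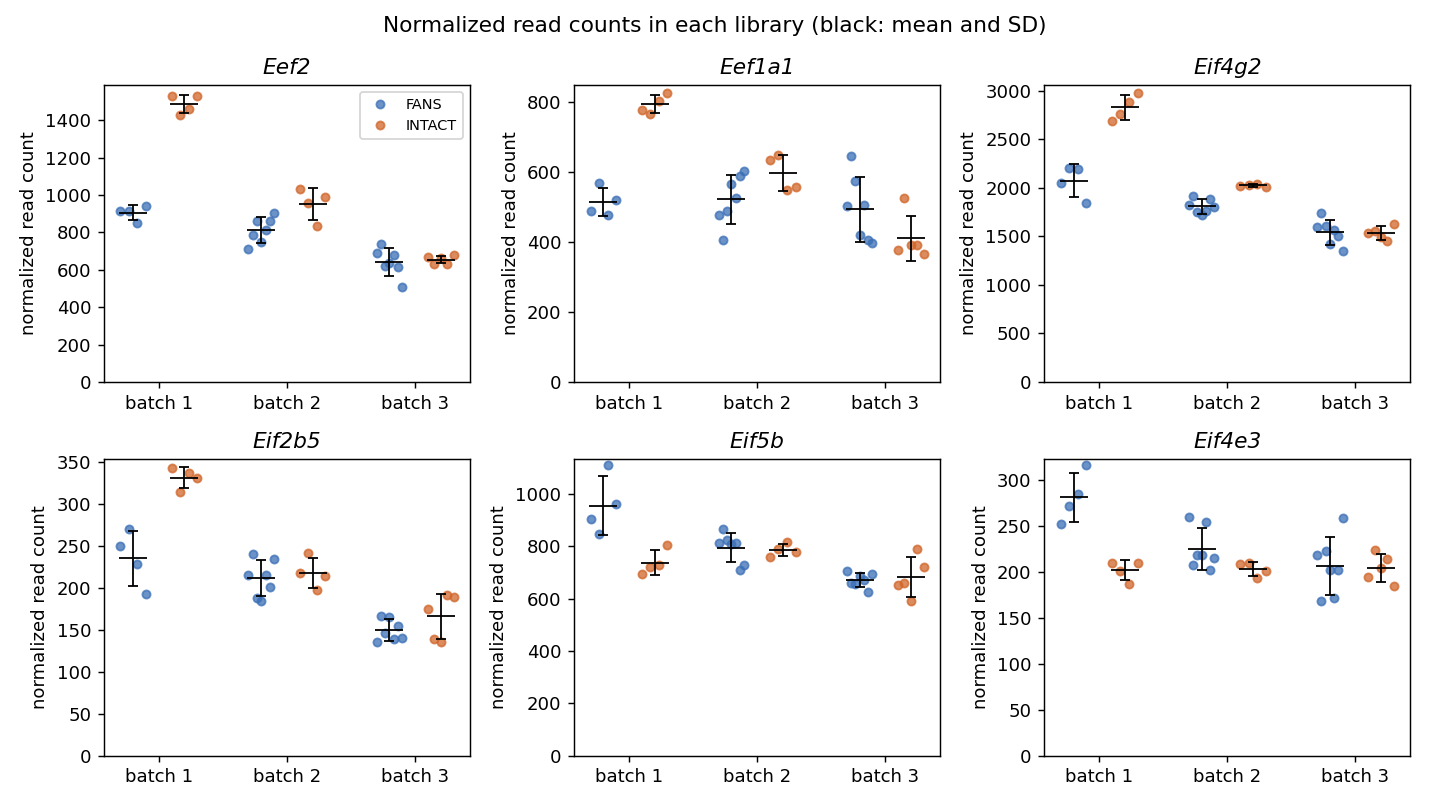
Normalized counts (vertical axis) in every FANS and INTACT library of the 3 batches for Eef2, Eef1a1, Eif4g2, Eif2b5, Eif5b and Eif4e3. In batch 1 the FANS and INTACT points of all 6 genes are separate, and in batch 3 they overlap.

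Genes of start codon recognition all lay above 0 in batch 1, and 3 of 6 passed. Eif5, the GTPase-activating protein of eIF2 and the most abundant member of the role per kb of exon, had 1240, 1200, 1260 and 1060 normalized counts in FANS and 1390, 1430, 1420 and 1480 in INTACT, without overlap (0.27, SE 0.0541, adjusted p = 3.57e-04). Eif1, which holds the scanning ribosome open, rose from 210 ± 25.7 to 286 ± 18.0 (0.45, adjusted p = 3.6e-04), and Eif1ad, a nuclear protein with an eIF1A-like domain, from 80.0 ± 9.59 to 102 ± 3.82 (0.35, adjusted p = 0.0315). The call of Eif1ad was lost in all omissions except those of FANS replicates 2 and 3, with an adjusted p of up to 0.0822. Eif1b, Eif1a and Eif1ax had differences of 0.16 to 0.22 and did not pass.

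Of the 14 eIF3 genes, 12 were tested and 3 rose in batch 1. Eif3d, a subunit that can itself bind the cap of some mRNAs, had 190, 168, 202 and 231 counts in FANS and 217, 273, 262 and 293 in INTACT, which overlapped by 1 library on each side (0.40, SE 0.102, adjusted p = 0.00292). Eif3g (chr9:20894349-20898590, - strand), an RNA-binding subunit, had 161, 136, 169 and 109 against 196, 203, 184 and 190 (0.45, SE 0.115, adjusted p = 0.00339). Its INTACT libraries were all higher in batch 2 as well, with 86.5 to 135 in FANS (median 111) and 135 to 156 in INTACT (median 147), although the adjusted p was 0.0561. Eif3l rose from 236 ± 5.25 to 280 ± 17.0 (0.24, adjusted p = 0.0167), but did not pass when INTACT replicate 2 or 3 was omitted (adjusted p up to 0.0692). Eif3a, the large scaffold subunit, lay at -0.11 (1380 ± 63.8 and 1280 ± 55.9, adjusted p = 0.0897), and Eif3m, the eIF3 gene with the highest level per kb of exon, at 0.11, with 338, 421, 458 and 377 in FANS and 392, 424, 448 and 453 in INTACT, which overlapped. The other tested subunits ranged from 0.05 to 0.25.

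Eif3j1 and Eif3j2, near-identical copies of the loosely bound eIF3 subunit j, and Eif4e1b, an oocyte form of eIF4E, were listed at 0 in all 31 libraries. A count of 0 in a single library still allows an expected count of up to 3 reads. Because only uniquely aligned reads were counted, reads shared by the copies of subunit j would have been dropped, and how many there were was not measured.

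The eIF4F genes were the most abundant group and were mixed, with 4 of 10 tested genes higher and 1 lower in batch 1. Eif4g2 (chr7:111067985-111083030, - strand), an eIF4G relative without the eIF4E-binding part, had 2050, 2210, 2200 and 1840 normalized counts in FANS and 2690, 2760, 2890 and 2980 in INTACT, clearly apart (0.45, SE 0.0535, adjusted p = 3.4e-07). In batch 2 its INTACT libraries (2010 to 2040) were again all above FANS (1720 to 1920), with a smaller difference of 0.16 (adjusted p = 0.0885), and in batch 3 the ranges of 1350 to 1740 and 1450 to 1630 overlapped. Eif4a1, a helicase subunit, rose from 402 ± 35.0 to 527 ± 38.3 (0.39, adjusted p = 1.25e-04), and its brain-enriched paralog Eif4a2 had 1850, 1960, 1890 and 1590 against 1990, 2080, 2210 and 2240 (0.23, SE 0.0565, adjusted p = 0.00254). Eif4g1, the canonical scaffold, rose least (1460 ± 126 to 1600 ± 27.7, 0.14, adjusted p = 0.0476), and its call was lost in every omission of 1 library except that of FANS replicate 3 (adjusted p up to 0.124). Eif4e3 (chr6:99625137-99666771, - strand), a cap-binding paralog of eIF4E, fell from 252, 272, 285 and 316 to 210, 201, 187 and 210 (-0.47, SE 0.086, adjusted p = 1.03e-04). Eif4g3, with the highest counts of all members (3480 ± 52.8 and 3360 ± 130), and Eif4e (506 ± 39.3 and 466 ± 27.2) did not pass. Eif4a3, the helicase of the exon junction complex that marks spliced mRNA, had 113, 99.3, 108 and 88.6 in FANS and 128, 112, 131 and 105 in INTACT, which overlapped (0.22, adjusted p = 0.171).

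Among the proteins that restrain or move eIF4E, Eif4enif1, which carries eIF4E into the nucleus, fell in batch 1 from 526, 528, 537 and 582 to 462, 418, 419 and 444 normalized counts, without overlap (-0.32, SE 0.0638, adjusted p = 3.16e-04). The eIF4E-binding proteins Eif4ebp2 and Eif4ebp3, both at -0.18, and Eif4ebp1 (26.4 ± 6.27 and 36.1 ± 4.25, 0.46, adjusted p = 0.104) did not pass. Eif5b (chr1:37998010-38055579, + strand), the GTPase of subunit joining, had 904, 848, 1110 and 964 in FANS and 694, 720, 729 and 806 in INTACT, so that every INTACT library was lower (-0.37, SE 0.0684, adjusted p = 1.28e-04). Its batch 2 ranges (710 to 865 in FANS, 761 to 816 in INTACT) and batch 3 ranges (626 to 707 and 593 to 792) overlapped. Eif5a, which relieves stalled ribosomes and carries the modified amino acid hypusine, rose from 134 ± 12.5 to 190 ± 22.3 in batch 1 (0.49, adjusted p = 6.37e-04), beside 0.23 for Eif5a2 (adjusted p = 0.0647) and 0.27 for Eif6, a factor of large-subunit maturation (adjusted p = 0.237).

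Of the 26 members that passed in batch 1, 18 passed under each of the 8 other settings and each omission of 1 library. These were 14 that rose and 4 that fell, namely Eef2k, Eif4e3, Eif4enif1 and Eif5b. The other 8 were Eef1b2, Eif1ad, Eif2ak1, Eif2ak4, Eif2b1, Eif2s2, Eif3l and Eif4g1.

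In batches 2 and 3 no member passed limma's test as fitted here, without a block for replicate numbers, in either direction or at any fold. In batch 2, 0.834% of all genes tested rose and 0.309% fell, and at an unadjusted p under 0.05 9 members were higher (15.5%, all genes 8.66%) and 1 lower (1.72%, all genes 6.58%). Eif3g and Eif4g2 were the members whose libraries did not overlap, both higher in INTACT (3.45%, all genes 1.59%; none was lower, all genes 1.4%). None passed with 1.5-fold (all genes 0.0941% higher and 0.0336% lower), and 33 members (56.9%) lay above 0 against 49.8% of genes. edgeR called 0 members in batch 2 and DESeq2 called 3, Eef2 (adjusted p = 0.0458), Eif3g (0.0246) and Eif4g2 (0.018). Leaving out FANS replicate 2 made limma call Eif3g (0.46, adjusted p = 0.0183) and Eif4g2 (0.18, adjusted p = 0.0465), and leaving out INTACT replicate 3 made it call Eef2 (0.29, adjusted p = 0.0468). The median member difference was 0.0123, and 0.01 to 0.04 when 1 library was left out, highest without FANS replicate 7 or INTACT replicate 1.

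In batch 3 fewer members lay above 0, 21 of 58 (36.2%) against 48.9% of genes. Their median was -0.0401, which ranged from -0.05 to -0.02 when 1 library was left out and was nearest 0 without FANS replicate 1, 2 or 5. There, 1.18% of all genes rose and 0.519% fell (0.0139% and 0.346% with 1.5-fold), and at an unadjusted p under 0.05 3 members were higher (5.17%, all genes 7.29%) and 6 lower (10.3%, all genes 6.46%). Eif3e, an eIF3 subunit, was the member without overlap (1.72% lower in INTACT, all genes 0.589%; none was higher, all genes 0.997%), with 245 to 310 counts in FANS (median 262) and 210, 215, 222, 232 and 234 in INTACT (-0.26, SE 0.0721, adjusted p = 0.0626). edgeR called 0 members and DESeq2 called Eif3e (adjusted p = 0.0358). Leaving out FANS replicate 4, 6 or 7 made limma call Eif3e (adjusted p 0.0434, 0.0492 and 0.0499), leaving out replicate 6 also Eif2s1 (-0.39, adjusted p = 0.024), and leaving out replicate 7 also Eif4g3 (0.17, adjusted p = 0.037).

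The difference between techniques was itself compared between batches with an interaction term. Between batches 1 and 2 it differed for 4 of 58 members, against 6.3% of all genes tested, namely Eef2 (0.71 against 0.23, a change of 0.48, adjusted p = 0.002), Eif5b (-0.37 against -0.01, adjusted p = 0.0179), Eif4g2 (0.45 against 0.16, adjusted p = 0.0215) and Eif2b5 (0.50 against 0.05, adjusted p = 0.0442). That count was 2 without batch 1 FANS replicate 3, INTACT replicate 3 or INTACT replicate 4. Between batches 1 and 3 it differed for 19 members, against 23.3% of genes, with the smallest adjusted p for Eef2 (change 0.67, 2.58e-06), Eef1a1 (0.88, 1.72e-05) and Eif4g2 (0.45, 3.19e-05). Eef1a1 had a positive difference in batch 1 and a negative one in batch 3, as had, among others, Eif3d (0.40 and -0.17), Eif5a (0.49 and -0.22) and Eif4ebp1 (0.46 and -0.48). None of the negative differences passed in batch 3, and Eif4ebp1 passed in neither batch. Between batches 2 and 3 no member differed (all genes 0.0%), and without batch 3 FANS replicate 7 Eef1a1 alone did.

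On the level scale of normalized counts per kb of curated exon, averaged over the libraries of batch 1, Eif4a2 stood highest with 621 (500 to 703), followed by Eif4g3 with 398 (377 to 411), Eef2 with 385 (273 to 493), Eef1a1 with 365 (267 to 461), Eif3m with 336, Eif5 with 330 and Eif4g2 with 316. Below Eif4a2, whose lowest library lay above the highest of every other member, the library ranges of neighbouring tested members in this order overlapped, except between Eif2b3 (26.6 to 32.3) and Eif1ax (13.5 to 19.0). The order depended on the technique, since the mean of Eif4g3 was 404 in FANS, above Eef2 (292) and Eef1a1 (287), but 391 in INTACT, below Eef2 (479) and Eef1a1 (443). Eif4a2 and Eif4g3 were also first and second in batch 2 (514 and 349) and batch 3 (405 and 302). The lowest tested members of batch 1 were Eef2kmt with 10.3, Eif2ak2 with 11.2 and Eif1ax with 16. Levels per kb of exon rest on reads over exons of nuclear RNA, and Eef1a2 has a curated exon length of 7980 bases, which lowers its level on this scale.

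The count ratio between paralogs differed without overlap in batch 1 for 4 of the 7 pairs examined, among them Eef1a1 to Eef1a2 above. No share over other gene pairs was computed, and of single genes 17.1% were higher and 16.5% lower without overlap. In each of the 4 pairs the first gene did not overlap on its own either, so the count shows nothing particular to paralogs. The count ratio of Eif4g2 to Eif4g3 was 0.538 to 0.638 in FANS and 0.783 to 0.891 in INTACT, and that of Eif4a1 to Eif4a2 0.212 to 0.224 against 0.231 to 0.291. Eif4e3 relative to Eif4e was 0.483 to 0.674 in FANS and 0.399 to 0.478 in INTACT. Eif4a1 and Eif4a2 had both risen, to different extents. These 3 ratios had no overlap in batch 1 and overlapped in batches 2 and 3, whereas Eif5a to Eif5a2, Eif1 to Eif1b and Eif4g1 to Eif4g3 overlapped in every batch.

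A property that the choice of members did not use separated the members that rose from those that fell in batch 1. The 20 that rose spanned 2.15 to 21.5 kb of genome from first to last exon (median 6.91 kb), whereas the 6 that fell spanned 41.6 to 86.6 kb (median 61.0 kb) and the 32 others 2.27 to 214 kb (median 18.5 kb). The same order held for all genes tested, with medians of 12.1 kb for those that rose, 53.7 kb for those that fell and 21.6 kb for the others. Across the 58 members, which share the same libraries and are not independent, Spearman's correlation of the log2 difference with span was -0.73 in batch 1, -0.54 in batch 2 and 0.08 in batch 3, beside -0.3 over 15074, -0.14 over 14835 and -0.03 over 14402 genes. With the length of the exons alone it was -0.33, -0.12 and 0.31. An overlap between the spans of curated transcripts and those of another gene of the tables on the opposite strand was found for 2 of the 6 that fell (Eif2ak1 and Eif5b; 24.6% of all genes that fell), 2 of the 20 that rose (Eif1ad and Eif4a2; 16.9% of all genes that rose) and 4 of the 32 others (17.9%). With whole gene records of the partners, which also cover predicted transcripts, Eif4enif1, which fell, overlapped Sfi1 and Eif5a, which rose, overlapped Gps2 as well. Whether the counting used the strand is not given in the sources used here, so reads of such a gene and its partner may not be separated.

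**Figure D3:**
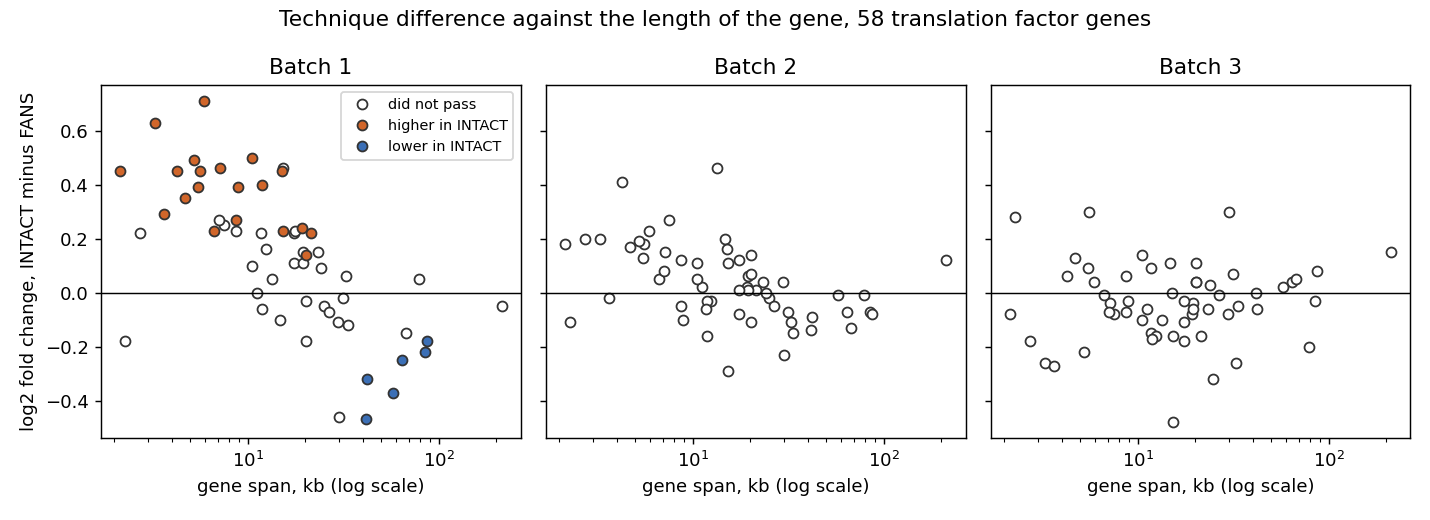
The log2 difference between INTACT and FANS of each tested member (vertical axis) against its genomic span in kb (horizontal axis, log scale), by batch. In batch 1 the members that rose lie at spans up to 21.5 kb and those that fell at 41.6 kb or more, and in batch 3 the points show no slope (Spearman 0.08).

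Other genes of the translation pathway differed by list in batch 1. Genes with symbols of cytosolic ribosomal proteins, a list made by symbol after results had been seen, were mostly higher, with 53 of 81 tested genes that rose, 1 that fell and a median log2 difference of 0.47, beside 18.6% and 17.5% of all genes and a median of 0.00668. That list had 1 higher and 0 lower of 81 in batch 2 and 0 higher and 2 lower of 80 in batch 3. The other lists had members in both directions or few that passed. Of the cytosolic aminoacyl-tRNA synthetases, which load tRNAs, 9 of 20 rose and 2 fell, among them Qars (309 ± 24.7 to 485 ± 23.3, 0.65, adjusted p = 1.11e-07), Farsa (230 ± 25.9 to 337 ± 23.5, 0.55) and, lower, Farsb, the partner subunit of Farsa (549 ± 25.2 to 442 ± 23.7, -0.31). Of the signalling genes, 5 of 15 rose and 3 fell. Tsc2, a brake on mTOR, rose (0.37, adjusted p = 1.34e-05), as did Ppp1r15b, which dephosphorylates eIF2 alpha (0.48), and the stress transcription factor Atf4 (0.30). Paralogous kinases went opposite ways: of the S6 kinases, Rps6kb2 rose (472 ± 23.7 to 653 ± 11.3, 0.47, adjusted p = 1.02e-06) and Rps6kb1 fell (-0.26, adjusted p = 1.55e-04), and of the eIF4E kinases, Mknk2 rose (0.55, adjusted p = 0.00265) and Mknk1 fell (-0.29, adjusted p = 0.0212). Rps6kb2 had differences of 0.26 (adjusted p = 0.0569) in batch 2 and 0.30 (adjusted p = 0.0532) in batch 3. Dhps, which makes the hypusine of eIF5A, rose (123 ± 27.0 to 184 ± 15.0, 0.59, adjusted p = 5.28e-04) as 1 of 2 genes of that step.

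Termination and rescue factors had 1 of 9 higher, the ribosome rescue factor Pelo (20.7 ± 7.81 to 36.5 ± 4.60, 0.85), and 1 lower, Mcts1 (-0.26). Poly(A)-binding and accessory proteins had 1 of 10 higher, the helicase Ddx3x (1360 ± 62.2 to 1730 ± 74.0, 0.35), and 1 lower, the eIF4A inhibitor Pdcd4 (696 ± 21.1 to 561 ± 39.8, -0.31). Mitochondrial translation factors had 1 of 9 higher, the elongation factor Tufm (0.68), and 2 lower. None of these genes passed in batch 2. In batch 3 Tsc2 passed, from 710 ± 61.1 in FANS (n = 7) to 887 ± 78.2 in INTACT (n = 5), with a log2 difference of 0.32 (adjusted p = 0.00562) and no overlap.

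Small nucleolar RNAs (snoRNAs), which guide chemical changes of ribosomal and other RNAs and are cut from introns, lie inside several members and had rows of their own. Snora81 (chr16:23110770-23110933, within Eif4a2) had 557 ± 101 and 475 ± 57.5 normalized counts in batch 1 FANS and INTACT (-0.22, adjusted p = 0.0762), 300.0 ± 48.2 (n = 7) and 219 ± 22.0 (n = 4) in batch 2 (-0.44, adjusted p = 0.0249) and 397 ± 114 (n = 7) and 156 ± 23.6 (n = 5) in batch 3 (-1.31, adjusted p = 8.8e-07). It fell without overlap in batches 2 and 3, while its host had differences of 0.23, 0.05 and -0.01. Snora41, within Eef1b2, fell in batch 3 from 29.7 ± 11.3 to 12.7 ± 5.16 (-1.16, adjusted p = 0.0124), although its libraries overlapped. Snora28, within Eif5, had -0.26, -0.36 and -0.69 and did not pass in any batch (adjusted p = 0.108, 0.217 and 0.06). Snord37 (chr10:81178961-81179013, within Eef2) rose with its host in batch 1, from 16.6 ± 3.13 to 35.8 ± 8.87 (1.05, adjusted p = 0.00136). Snord2 and Snord66, within Eif4a2 and Eif4g1, did not pass, and Snora19, within Eif3a, was listed at 0. Reads of a snoRNA and of unspliced host RNA over it cannot be told apart in these counts.

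**Figure D4:**
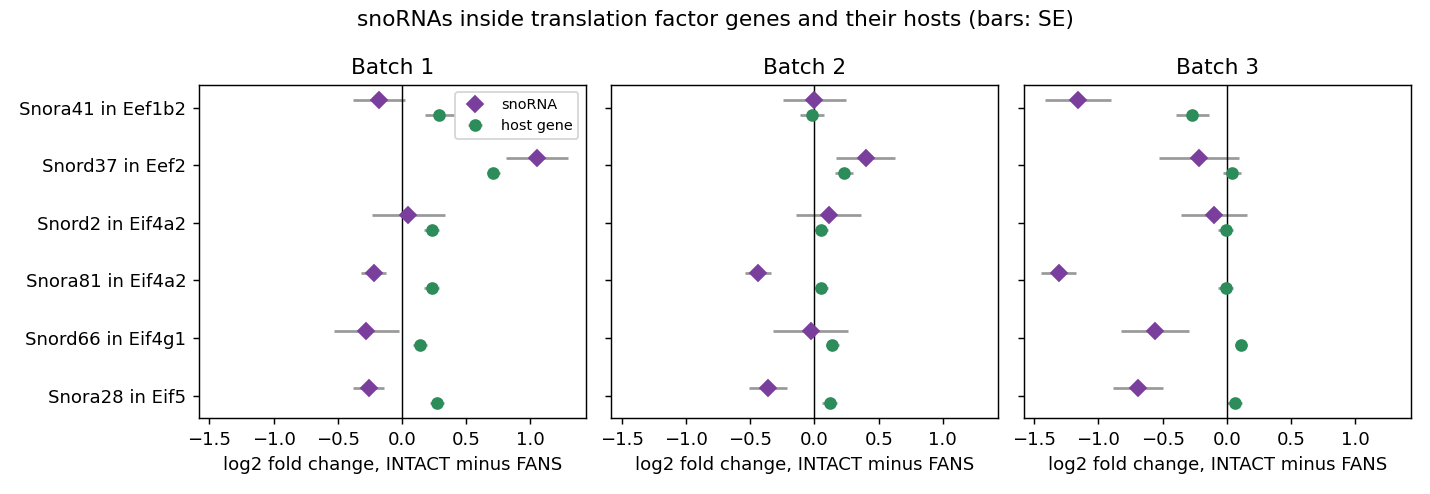
The log2 difference between INTACT and FANS (horizontal axis) for 6 snoRNAs (diamonds) and for the members that host them (circles), by batch, with bars for the standard error. In batch 3 Snora81 and Snora41 lie below -1 while their hosts Eif4a2 and Eef1b2 lie at -0.01 and -0.27.

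The promoters of nearly all members were open with both techniques. Of the 61 members, 59 (96.7%) had an ATAC-seq peak within 1 kb of an annotated start in all 6 lists, all but Eif4e1b and Eif4ebp3. Among all genes tested in batch 1 with a curated start, 12609 of 15074 (83.6%) had one, against 57 of the 58 members tested (98.3%). Eif3j1 and Eif3j2 had peaks in all 6 lists although their RNA was listed at 0. Opposite-strand genes that start within 1 kb, and may share a peak, were found for 11 of the 61 members (18.0%) and 17.8% of genes, with 17 bases between Eif2b1 and Gtf2h3, 9 between Eef1b2 and Ndufs1 and 32 between Eif3i and Tmem234.

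Peak heights, given as fold enrichment over the local background, were lower in INTACT for most members and for most genes alike. The median member height was 16.5 ± 0.285 in FANS and 14.2 ± 1.09 in INTACT (SD, n = 3 each), a difference of -2.37 with an exact two-sided permutation p of 0.1, the smallest that 3 against 3 allows. For all genes the medians were 15.0 and 12.4. All 3 INTACT heights were below all 3 FANS heights for 38 of 59 members (64.4%) against 56.3% of genes, and the median ratio of INTACT to FANS was 0.853 for both. The lists are technical replicates of 1 source and their read depth is unknown, so these differences say nothing about animals.

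Single members departed from that ratio. Eif2b1 had heights of 15.8, 15.8 and 14.3 in FANS and 5.60, 5.37 and 8.87 in INTACT, with peaks of 702, 782 and 753 bases against 317, 390 and 670. Its INTACT peaks were all lower and narrower, with a height ratio of 0.431, at a start 17 bases from that of Gtf2h3. Eif3i (ratio 0.572; 14.9, 15.1 and 17.8 against 8.66, 6.18 and 12.5) and Eif4enif1 (0.583) were also low. Eif2ak2, shown above with its interferon response letters, was the 1 member (1.69%, all genes 0.936%) whose INTACT heights, 10.9, 9.94 and 9.29, were all above those of FANS, 7.90, 7.67 and 7.61. Eef2, whose RNA rose most, had 8.28, 7.77 and 8.62 in FANS and 5.12, 5.88 and 5.75 in INTACT, and Eef1a1 15.1, 15.5 and 15.7 against 13.6, 13.6 and 14.8. Eif2b2 had the highest peaks (22.9, 24.2 and 24.5 in FANS; 19.6, 19.0 and 24.2 in INTACT) and Eif4e3 the lowest (3.60, 3.56 and 3.25; 2.72, 4.54 and 3.83). Across 57 members the RNA difference of batch 1 and the height ratio had a Spearman correlation of -0.19, beside 0.04 in batch 2 and -0.1 in batch 3.

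**Figure D5:**
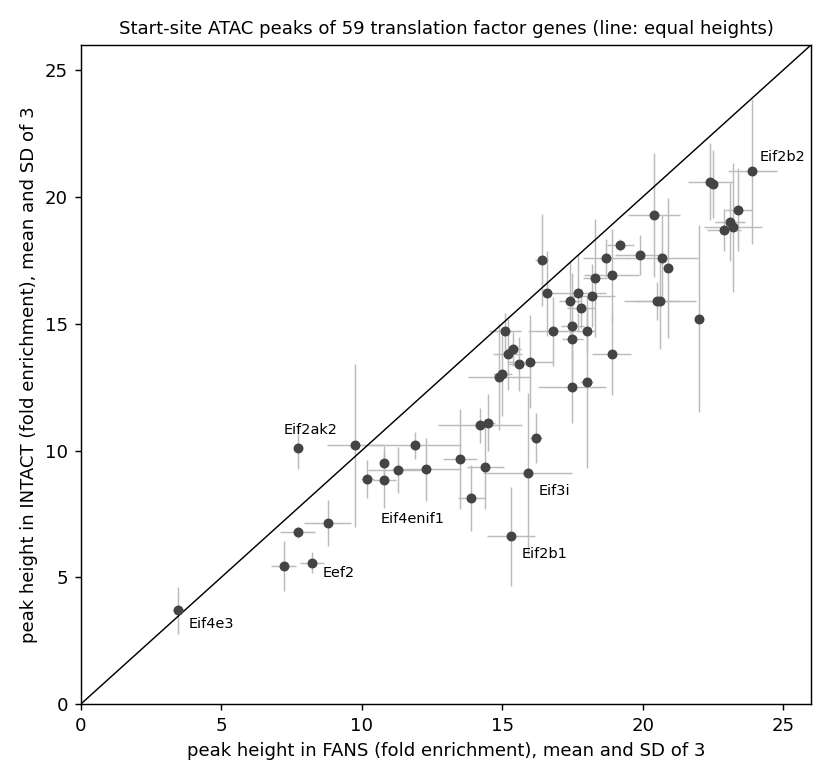
Mean start-site peak height (fold enrichment) in the 3 INTACT lists against the mean in the 3 FANS lists for the 59 members with a peak in all lists, with bars for the SD of 3 lists. Most members lie below the line of equal height, with Eif2b1 farthest below and Eif2ak2 above it.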

How the data were processed

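Nuclear RNA-seq and ATAC-seq of sfGFP+ neocortical nuclei were analysed from tables made by the authors. Per the methods and labels, the authors prepared the RNA libraries with NuGEN Ovation SoLo, used STAR against mm10, collapsed reads that shared a molecular identifier, counted those mapped uniquely in HTSeq and normalized by DESeq. The deposited RNA values are therefore a signal per gene, a read count divided by 1 size factor per library within a batch. Low values rose in even steps, taken as 1 read each, and 100% of the values up to 1000 reads, 15687 to 16437 per library, then lay within 0.1 of a whole number. The tables hold 31 libraries, and for batch 2 the labels list 8 FANS and 5 INTACT libraries, of which 7 and 4 were used and the others were not analysed here. Summary rows of reads outside genes were left out of the tests, and 0 columns belonged to other series.

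Each batch was fitted on its own in limma (3.58.1, R 4.3.3; trended variance), using log2(normalized count + 1) of genes whose mean reached 5, and p-values were adjusted by Benjamini-Hochberg over all genes tested. A gene passed at an adjusted p under 0.05, and was called enriched or depleted at 1.5-fold or more in addition. Fold changes of low genes are understated on this scale. An interaction term compared batches. Alternatives were a pseudocount of 5, no filter or a mean of at least 20, 75th percentile and quantile scaling, edgeR 4.0.16 and DESeq2 1.42.0 on the recovered whole reads, a replicate block and the omission of each library. On all genes, limma called 5458, 170 and 246 genes in batches 1 to 3, and edgeR on whole reads 5676, 183 and 273. No pair of libraries of a group agreed within sampling noise (70 pairs, chi-square per gene of 1.78 to 16.3).

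For ATAC-seq the authors trimmed reads with Trimmomatic, aligned them with Bowtie2 to mm10, filtered duplicates in Picard and ran MACS2 per library; a shift of the reads is not given in the sources used here. The deposited lists hold a score, the fold enrichment ratio taken here as height, and -log10 p-values and -log10 q-values. A member had a start-site peak when a peak lay within 1 kb of an annotated start, and 0 peaks lay past the chromosome ends of GRCm38. Read depth is unknown for these lists.

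Values in every library were given for members that passed with 1.5-fold in any batch, for the member of each role with the smallest adjusted p in batch 1 and that with the highest level per kb of exon, and for members that passed in batch 2 or 3; some more, such as Eif3g, Eif3e and Eif4e3, were added after their values were seen. The members and gene lists were chosen with earlier results of these data known.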

Additional observations from a re-analysis of the deposited data

Results flagged for a closer look

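In 96 groups of libraries examined, with a gap test that chance alone meets in about 1 of 20 groups, a single library stood apart for 2 members. Eif4a2 had 1820 normalized counts in batch 2 FANS replicate 2, where the other FANS libraries had 1530 to 1650, and Eef1a1 had 525 in batch 3 INTACT replicate 2, where the others had 365 to 392.

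The other results were picked out because the INTACT minus FANS difference itself differed between batches by the interaction test of limma, at an adjusted p under 0.05 over all genes. Between batches 1 and 2 the log2 difference changed by 0.48 for Eef2 (adjusted p = 0.002), 0.46 for Eif2b5 (0.0442), 0.29 for Eif4g2 (0.0215) and -0.36 for Eif5b (0.0179).

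Between batches 1 and 3 the elongation genes changed by 0.88 for Eef1a1, 0.39 for Eef1a2, 0.56 for Eef1b2, 0.67 for Eef2 and -0.29 for Eef2k. Start codon and eIF2 genes changed by 0.53 for Eif1, 0.41 for Eif1b, 0.38 for Eif2s2 and -0.26 for Eif2ak4. The eIF3 genes changed by 0.57 for Eif3d and 0.31 for Eif3e. The cap-binding group changed by 0.23 for Eif4a2, -0.47 for Eif4e3, 0.94 for Eif4ebp1, -0.26 for Eif4enif1, 0.45 for Eif4g2 and -0.20 for Eif4g3, and the last step of initiation and eIF5A by -0.39 for Eif5b and 0.71 for Eif5a. These 19 members are 32.8% of the 58 tested, beside 23.3% of all genes. Batch, animals and RNA quality changed together between the tables and cannot be told apart.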

How the results depend on the processing

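Counts of members and the other summary values were computed under 8 further settings and with each library left out in turn. By a loose rule, 117 of 121 such values with another setting and 223 of 235 with a library left out were labelled unchanged. Under that rule a count could change by up to 1.5-fold, and an ATAC-seq difference had only to keep its sign. Some of these counts, such as members lower in batch 2, were 0 under every omission. In batch 2, DESeq2 on whole reads called 3 members higher. In batch 3, DESeq2 called 1 lower. When a library was left out, members higher in INTACT ranged from 15 to 21 and lower from 4 to 7 in batch 1, depleted 1.5-fold from 0 to 1 in batch 1, higher from 0 to 2 in batch 2, and higher from 0 to 1 and lower from 0 to 2 in batch 3. Members whose technique effect differed ranged from 2 to 5 for batches 1 and 2, 13 to 24 for batches 1 and 3 and 0 to 1 for batches 2 and 3, and the ATAC-seq height difference from -3.0 to -2.01. No result reversed past its threshold. Eef1b2, Eif2s2 and Eif4g1 also lost their batch 1 call under other settings, such as DESeq2, and Eif1ad under DESeq2. The causes were not tested.

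Replicate numbers are shared between techniques, and the deviations of same-numbered libraries had correlations of -0.070 to 0.112. The own number was highest in no pair of batches 1 and 2, so the numbers gave no sign of a pairing there. In batch 3 it was highest in 3 of 5 pairs, at low correlations, so whether the numbers pair those libraries is not settled. With the replicate number as a block, 18 members were higher and 6 lower in batch 1, and in batch 3 1 was higher (Eif4g3, 0.18, adjusted p = 0.00299) and 3 lower (Eef1a1, -0.37, 9.9e-05; Eif2s1, -0.40, 0.00887; Eif3e, -0.29, 0.0147), while over all genes the calls were 5251, 3 and 1102 in batches 1 to 3. Precision is limited by 4 to 7 libraries per group and, for the least abundant members, by counting error at 10 reads or more per library.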
